A study of Mus musculus with 14 samples.

Results

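The nuclear-encoded subunits of the respiratory chain were examined in mouse liver and hepatocytes with and without a deletion of Mettl3, the methyltransferase that writes N6-methyladenosine (m6A) on mRNA. The members were all genes whose symbol starts with Nduf followed by a, b, c, s or v and a digit (with Ndufab1), Sdha to Sdhd, Uqcr, Cox4 to Cox8 or Atp5, and numbered 85 of the 22564 genes in the expression tables. Names of pseudogenes, which removed 1 gene, and assembly factors were left out. Complex I had 38 members, complex II 4, complex III 8, complex IV 18 and complex V 17. A few members carry such a name without being a subunit of that complex. They are Cox7a2l (a factor of supercomplex assembly), Atp5s, Atp5sl, Ndufa4 (a subunit of complex IV named as one of complex I) and Ndufa4l2.

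The animals were C57BL/6 mice of 8 weeks. The knockout (cKO) carried floxed Mettl3 alleles and Cre under the albumin promoter, which is active in hepatocytes, so that the other cells of the liver keep Mettl3. The control libraries are labelled wild type, and the study's methods give its WT mice Alb-cre without a floxed Mettl3 allele and name WT or heterozygous littermates as controls in general. Expression was measured in 8 libraries, namely hepatocytes isolated from males (1 input library labelled WT and 1 labelled cKO), male liver (2 and 2 input libraries) and female liver (1 and 1 RNA-seq library). For the male samples, 6 matching m6A immunoprecipitation (IP) libraries gave lists of peaks.

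In the respiratory chain, complexes I and II feed electrons from NADH and succinate into ubiquinone, complex III passes them to cytochrome c, complex IV reduces oxygen, and complex V uses the resulting proton gradient to make ATP. Most subunits are encoded in the nucleus and imported, while a small set of core subunits is encoded in mitochondrial DNA, so that both genomes contribute to complexes I, III, IV and V. Liver is rich in mitochondria, and transcription factors such as NRF1, GABP and the ERR family are known for binding promoters of these genes.

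Values are FPKM (fragments per kilobase of transcript, scaled to library size) as the authors computed them. The libraries held an estimated total of between 1737406 and 10909043 fragments on genes, from the steps between low values, and the median member rested on 45 fragments in the hepatocyte library labelled WT and on 1727 in the female liver labelled cKO. In the hepatocyte library labelled WT, 19 members rested on under 20 fragments. Mettl3 itself was at 8.43 and 10.6 FPKM in the male livers labelled WT and at 26.3 and 14.7 in those labelled cKO, at 29.7 and 72.3 in female liver, and at 3.44 and 2.91 in hepatocytes (WT first). Its level was therefore not lower in the livers labelled cKO. An FPKM over the whole gene does not measure the deleted part alone, and groups are called by their labels throughout. The female library titled WT has a genotype tag that reads cKO and was taken as WT from its title.

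Promoter sequences are shown because these genes lie on many chromosomes and share a few short motifs near their starts. Of the 85 members, 70 matched a promoter in RefSeq (GRCm38.p6, from 250 bases before the start to just after it). The letters GCGCATGC of the NRF1 motif, searched on both strands, were found in 10 of 70 members (14.3%) and in 2.71% of all 32851 promoters. The motif overlaps its own copy on the other strand, which gives the longer runs. Capitals mark the matched letters in 30 bases of members of each complex, written along the strand of the gene.
Ndufa11 (chr17:56717692-56717721, plus strand): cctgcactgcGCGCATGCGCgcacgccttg
Sdhb (chr4:140961206-140961235, plus strand): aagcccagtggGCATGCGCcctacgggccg
Uqcrc1 (chr9:108936668-108936697, plus strand): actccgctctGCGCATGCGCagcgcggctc
Cox6a1 (chr5:115349101-115349130, minus strand): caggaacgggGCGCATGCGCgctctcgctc
Atp5k (chr5:108434430-108434459, minus strand): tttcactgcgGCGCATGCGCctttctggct

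The YY1 motif AAGATGGC, searched in the same way, was also found in 10 members (14.3%, against 2.75% of all promoters), and 0 members had both motifs. In 9 of the 10 the ATG within the motif was the annotated start codon, as in these windows, where capitals again mark the match.
Ndufa3 (chr7:3617384-3617413, plus strand): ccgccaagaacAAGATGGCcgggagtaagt
Ndufs7 (chr10:80249462-80249491, plus strand): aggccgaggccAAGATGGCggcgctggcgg
Atp5j2 (chr5:145191500-145191529, minus strand): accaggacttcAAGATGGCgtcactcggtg

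Complex I held 7 of the 10 members with YY1 letters and 3 of the 10 with NRF1 letters. The other motifs searched on both strands were CCGGAAGT of GABP (7.14% of members, 3.89% of all promoters), AAGGTCA of ERR (11.4% and 4.72%), TGACGT of CREB (12.9% and 7.51%), GGGCGG of SP1 (41.4% and 35.7%) and TATAAA (10.0% and 13.6%). G and C made up 57.3% of the median member's promoter and 52.7% of the median promoter overall. A match is a description of letters, and binding was not measured.

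In hepatocytes, nearly all members were listed higher in the library labelled cKO. At a fold of at least 2 on the scale of FPKM + 1, 60 of the 77 members tested (77.9%) were higher, against 23.6% of all 9596 genes tested, and 0 were lower, against 13.2% of all genes. Genes were tested where the mean of the pair reached 1 FPKM. At a mean of at least 5 FPKM the contrast was smaller, with 58 of 74 members higher, against 37.5% of 4131 genes. The medians were then 1.26 for the members and 0.73 for all genes. With 1 library a genotype there is no test, and the difference has no replicate check. The median log2 fold change of the members was 1.27, beside 0.41 over all genes, and all 77 were above 0.

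The difference was present in all complexes. Complex I had a median log2 fold change of 1.31, complex II 1.47, complex III 1.28, complex IV 1.18 and complex V 1.11. All 4 subunits of complex II (succinate dehydrogenase) were at least 2-fold higher, and so were 31 of 37 tested members of complex I, 7 of 8 of complex III, 8 of 12 of complex IV and 10 of 16 of complex V. The FPKM of all members summed to 1372 under the WT label and to 3348 under the cKO label, which was 0.720% and 0.985% of the FPKM of all genes.

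Members differed in the size of this difference. Uqcrc2, a core protein of complex III, was at 9.91 and 45.2 FPKM in the libraries labelled WT and cKO (ratio 4.56, 95% exact binomial interval 3.58 to 5.85). Sdhd, the small membrane anchor of complex II, was at 13.6 and 45.5 FPKM (3.34, 2.63 to 4.28), and Sdha, its flavoprotein, at 15.6 and 45.8 (2.94, 2.52 to 3.44). These intervals cover counting error only.

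The catalytic beta subunit of ATP synthase, Atp5b, went from 107 to 291 FPKM (2.72, 2.46 to 3.00), and the alpha subunit Atp5a1 from 43.9 to 117 (2.67, 2.43 to 2.95). At the low end, Cox7b was at 35.8 and 41.4 FPKM (1.15, 0.875 to 1.53), Cox7a2l at 19.1 and 22.3 (1.17, 0.895 to 1.52) and Ndufa4 at 32.2 and 39.5 (1.23, 0.881 to 1.72). The intervals of these last 3 members include a ratio of 1 on the deposited scale, and so does that of Ndufa7 of complex I, at 23.3 and 33.4 (1.43, 0.988 to 2.10). Whether a ratio differs from 1 depends on scaling as well as on depth. The summed ratio of all members was 2.44 as deposited and 1.36 with the FPKM of all non-mitochondrial genes made equal.

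The hepatocyte libraries also differed in their cell type markers and in scaling. Summed over 10 hepatocyte markers, FPKM was 13563 under the WT label and 29005 under the cKO label, and 9 of 10 were at least 2-fold higher, with a median log2 fold change of 1.91. The 9 Kupffer cell and macrophage markers tested were at least 2-fold lower, with sums of 530.4 and 12.01, and so were 10 of 10 endothelial markers (312 to 32.7) and 7 of 7 stellate cell markers (138 to 14.6). Cholangiocyte markers summed to 9.28 and 1.94, erythroid markers to 4.99 and 10.6, and muscle markers to 0.217 and 0. Their part in the result was not tested, and in bulk samples fewer cells of a type and less RNA per cell cannot be told apart. FPKM was also rescaled so that all genes other than the mitochondrial ones summed to the same total in both libraries. Then 7 of 77 members rather than 60 were at least 2-fold higher, against 6.72% of all genes. The members' median was then 0.71 above that of all genes, rather than 0.86. Rescaling multiplies all genes of a library by 1 factor, so this gap is no check on scaling. Mitochondrial genes made up 38.5% of FPKM under the WT label and 38.1% under the cKO label. Of these genes, 8 are listed at 0 under the WT label and none under the cKO label.

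**Figure D1:**
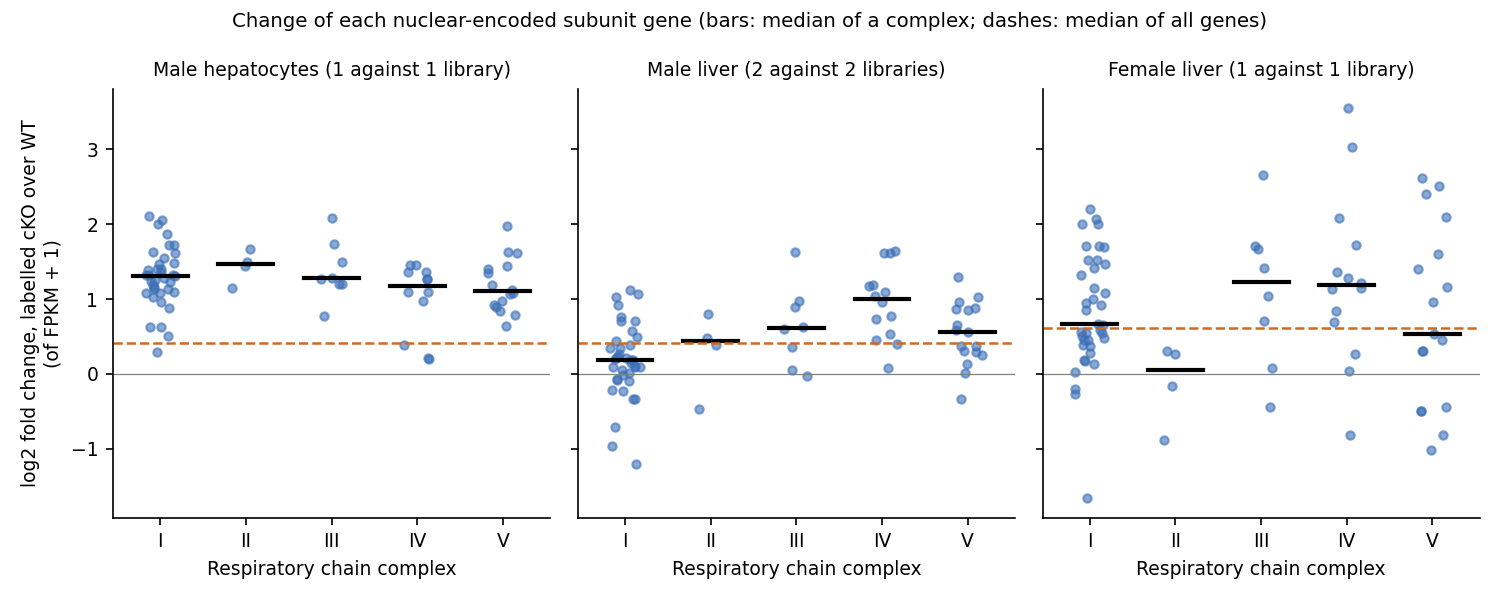
Log2 fold change of FPKM + 1 (labelled cKO over WT, y axis) of each tested member by complex (x axis) in hepatocytes, male liver and female liver. Each point is a gene, black bars are medians of a complex, and dashed lines are the medians of all genes (0.41, 0.42 and 0.61). In hepatocytes 73 of 77 members lie above the line, and in male liver 12 of 14 members of complex IV do, but 10 of 38 of complex I.

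Male liver, the only replicated comparison, asked whether the same subunits differ in the whole organ. Of 81 members tested, 1 was called higher in the livers labelled cKO (limma on log2 of FPKM + 1, Benjamini-Hochberg adjusted p under 0.05), against 3.68% of the 10937 genes tested, and 0 were called lower, against 1.5% of all genes. At an unadjusted p under 0.05 there were 15 members of 81, against 25.3% of all genes. The median member had a log2 fold change of 0.39, beside 0.42 over all genes, and 38 of 81 members were above the latter. No source says that the livers of a group came from separate animals, so p-values measure only the spread between these libraries.

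The member called was Cox7a2l (chr17:83501934-83514330, minus strand), which takes part in joining complexes III and IV into supercomplexes. It was at 39.0 and 43.1 FPKM in the livers labelled WT and at 133 and 128 in those labelled cKO. The groups did not overlap, and the log2 fold change was 1.65 ± 0.32 (SE, limma adjusted p = 0.0360). Without any single library its adjusted p missed the threshold, with 0 genes called in the whole table, and the log2 fold change was between 1.58 and 1.72.

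Over all members, both livers labelled cKO were above both labelled WT for 39 of 81, against 44.8% of all genes, and below them for 2 (Ndufb3 and Ndufa4l2), against 11.7%. The complexes differed among themselves. Complex IV had the highest median log2 fold change, 1.00, and all 14 of its tested members were above 0. Leaving out 1 library moved this median to between 0.54 (without cKO replicate 3) and 1.29 (without cKO replicate 2). Complex I had the lowest, 0.19, with 27 of 38 above 0 and 10 above the median of all genes, and moved to between -0.02 and 0.54 without the same libraries. Complex II was at 0.43, complex III at 0.62 and complex V at 0.56. The gap between complexes IV and I was 0.81, and it lay between 0.66 and 0.98 in the 4 pairs of a library labelled cKO with one labelled WT. It was 0.52 in female liver and -0.13 in hepatocytes. The gap itself was not tested. Directions here depend on scaling. With median-ratio scaling the median of all genes moved from 0.42 to -0.01 and that of the members from 0.39 to -0.13. Complex I moved from 0.19 to -0.33 and complex IV from 1.00 to 0.48. Cox7a2l, at 1.13, was no longer called.

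In complex IV, 7 of 14 members had at least 2-fold higher values, against 13 of all 81 members and 23.7% of all genes. The 7 included common and muscle isoforms of its small subunits. Without Cox7a2l, which is no subunit, it was 6 of 13. The muscle isoforms Cox6a2 and Cox7a1 reached the filter only through the livers labelled cKO (means of 0.572 and 0.449 FPKM under WT, 3.48 and 3.49 under cKO). At a mean of at least 5 FPKM the median of complex IV was 0.96 and that of the members 0.38. Cox4i1, the ubiquitous isoform of subunit 4, was at 108 and 165 FPKM in the livers labelled WT and at 286 and 323 in those labelled cKO. Cox8a was at 132 and 230.1 against 360.3 and 429, and Cox7a2, the liver form of subunit 7a, at 39.5 and 55.5 against 89.1 and 115. Their groups did not overlap, but the changes did not pass the test, with log2 fold changes of 1.18 ± 0.34, 1.17 ± 0.37 and 1.09 ± 0.35 (SE, limma adjusted p = 0.0945, 0.115 and 0.118).

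Cox6a1, the non-muscle form of subunit 6a, was at 199.7 and 213 FPKM in the livers labelled WT and at 291 and 409 in those labelled cKO (adjusted p = 0.213 by limma). Cox6b1 was at 177 and 186 against 135 and 423, so that its groups overlapped. Cox7b was at 87.8 and 91.9 against 74.9 and 121, with a log2 fold change of 0.08, the lowest in the complex.

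Isoforms typical of muscle, testis or other tissues were low in male liver. Cox4i2, Cox7b2 and Cox8c were listed at 0 in all 8 libraries, and Cox8b did not exceed 0.979 FPKM. Cox7a1, the heart and muscle form of subunit 7a, was at 0.898 and 0 FPKM in the male livers labelled WT and at 1.94 and 5.05 in those labelled cKO. Cox6a2, the muscle form of subunit 6a, was at 0 and 1.14 against 3.24 and 3.73, and Cox6b2, known from testis, at 1.54 and 0 against 0 and 4.33. None of these 3 passed the test (limma adjusted p = 0.154, 0.132 and 0.749), while muscle markers summed to 10.2 and 10.0 FPKM in the livers labelled WT and to 3.14 and 4.67 in those labelled cKO.

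**Figure D2:**
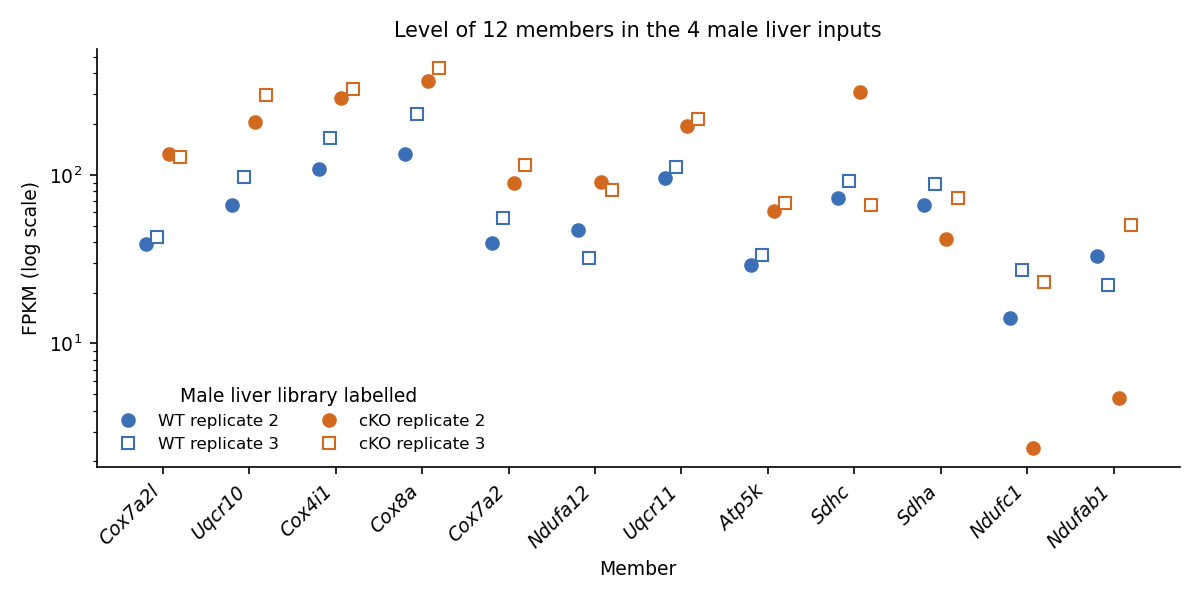
FPKM on a log scale (y axis) of 12 members (x axis) in each of the 4 male liver inputs. Filled circles are replicate 2 and open squares replicate 3, blue labelled WT and orange labelled cKO. Cox7a2l, Uqcr10, Cox4i1, Cox8a, Cox7a2, Ndufa12, Uqcr11 and Atp5k show groups that do not overlap, while Sdhc, Sdha, Ndufc1 and Ndufab1 overlap.

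In complex III the small subunits lay at both ends of the range. Uqcr10 was at 66.7 and 96.6 FPKM in the livers labelled WT and at 207 and 299.6 in those labelled cKO, and its log2 fold change of 1.62 ± 0.36 just missed the threshold (SE, limma adjusted p = 0.0526). Uqcr11 was at 95.4 and 112 against 194 and 215 (0.98 ± 0.31, limma adjusted p = 0.116). The groups of both did not overlap. The core proteins Uqcrc1 and Uqcrc2 had log2 fold changes of 0.63 and 0.37 and the Rieske iron-sulfur protein Uqcrfs1 0.89, with limma adjusted p between 0.286 and 0.520. The hinge protein Uqcrh and Uqcrb had the lowest values, 0.05 and -0.03. Uqcrb was at 262 FPKM in both livers labelled WT and at 209 and 317 in those labelled cKO, and Uqcrq was at 161 and 138 against 177 and 291.

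Of 6 core subunits of complex I encoded in the nucleus, which together carry most of its redox centres, 0 passed the test. Ndufv1, which binds the flavin, was at 22.7 and 22.0 FPKM in the livers labelled WT and at 56.4 and 33.3 in those labelled cKO (0.93 ± 0.38, limma adjusted p = 0.191). Ndufs1, Ndufs3, Ndufs7, Ndufs8 and Ndufv2 had log2 fold changes between -0.22 and 0.22. Among the accessory subunits, Ndufa12 was at 47.1 and 32.1 against 90.4 and 81.1 (1.12 ± 0.35, limma adjusted p = 0.111), and its groups did not overlap. Ndufa3, which had the highest mean FPKM in complex I over the 8 libraries, was at 127 and 186 against 191 and 228.

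Several members rested on the cKO replicate 2. Ndufc1, an accessory subunit of complex I, was at 14.2 and 27.3 FPKM in the livers labelled WT and at 2.39 and 23.2 in those labelled cKO, and its log2 fold change of -1.20 became 0.22 without that library. Sdhc, a membrane anchor of complex II, was at 73.1 and 92.0 against 310.2 and 66.4, and its 0.80 became -0.30. Ndufab1, the mitochondrial acyl carrier protein, was at 33.0 and 22.3 against 4.76 and 50.1. Of the other subunits of complex II, Sdha was at 66.7 and 88.6 against 41.4 and 73.3, Sdhb, the iron-sulfur subunit, at 54.2 and 81.7 against 87.3 and 99.7, and Sdhd at 43.2 and 42.5 against 39.7 and 79.9, with limma adjusted p between 0.433 and 0.600. Without cKO replicate 2 the median over all members was 0.77, and without cKO replicate 3 it was 0.15.

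In ATP synthase, Atp5b was at 225 and 349 FPKM in the livers labelled WT and at 459.6 and 649 in those labelled cKO (0.96 ± 0.36, limma adjusted p = 0.162). Atp5a1 was at 194 and 235 against 226 and 244, and its groups overlapped. The genes Atp5g1, Atp5g2 and Atp5g3 encode the same c-ring protein with different leader peptides, and their log2 fold changes were 0.29, 0.85 and 0.65. Atp5k, the e subunit that helps ATP synthase form dimers, was at 29.1 and 33.3 against 61.0 and 68.2 (1.03 ± 0.33, limma adjusted p = 0.115). Atp5s was low, at 1.18 and 0.854 against 3.21 and 4.73 (1.29 ± 0.46, limma adjusted p = 0.142).

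The markers of other cell types in the male livers moved as well. Kupffer cell and macrophage markers summed to 148 and 151 FPKM in the livers labelled WT and to 353 and 513 in those labelled cKO (9 of 9 above 0, 1 called), stellate cell markers to 144 and 146 against 366 and 385 (10 of 10 above 0, 1 called), and cholangiocyte markers to 56.0 and 18.02 against 236 and 167 (5 of 5 tested at least 2-fold higher, 1 called). Endothelial markers summed to 139.6 and 108 against 199.9 and 177, erythroid markers to 76.2 and 232 against 56.2 and 234, and hepatocyte markers to 30585 and 39539 against 17869 and 21138, with 7 of 10 below 0. The part of these shifts in the members' values was not tested.

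Female liver gave larger and more uneven differences. At least 2-fold higher in the library labelled cKO were 35 of 81 members (43.2%), against 36.8% of all 11046 genes, and at least 2-fold lower were 2 (Atp5j and Ndufa4l2), against 11.3%. There was 1 library a genotype and therefore no test. The median member had a log2 fold change of 0.84, beside 0.61 over all genes. By complex the medians were 0.66 for complex I, 0.06 for II, 1.22 for III, 1.18 for IV and 0.53 for V.

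The largest difference was that of the muscle form Cox6a2, at 0.122 and 12.1 FPKM, whose ratio of 98.6 rests on 1 and 90 fragments (95% exact binomial interval 17.2 to 3936), while muscle markers summed to 13.3 and 27.1. Uqcr10 was at 247 and 1562 FPKM in the female livers labelled WT and cKO (ratio 6.34, 95% exact binomial interval 5.96 to 6.75, counting error only), and Cox7a2l at 43.2 and 361 (8.34, 7.68 to 9.06). Atp5d and Atp5e, the delta and epsilon subunits of the central stalk, were at 161 and 925 (5.73, 5.46 to 6.01) and at 189.6 and 1001 (5.28, 4.91 to 5.68). Other members went the other way. Atp5j, a subunit of the peripheral stalk, was at 490.5 and 242 (0.493, 0.463 to 0.524), Cox6c at 739 and 421 (0.570, 0.541 to 0.600) and Sdhc at 61.4 and 33.0 (0.537, 0.490 to 0.588). Members of the same complex thus differed in direction by more than the counting error.

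The female libraries differed in scaling and markers too. With median-ratio scaling 14 of 81 members were at least 2-fold higher and 9 lower, against 20.1% and 20.9% of all genes. With the summed FPKM of all genes but the mitochondrial ones made equal, 21 were higher and 5 lower, against 25.2% and 17.3%. Complex II then had a summed FPKM 0.729 times that labelled WT. Mitochondrial genes made up 16.3% of FPKM under the WT label and 11.9% under the cKO label. Kupffer cell and macrophage markers summed to 343 and 1118 FPKM (WT first), stellate cell markers to 264 and 591, cholangiocyte markers to 38.2 and 261, endothelial markers to 176 and 358 and erythroid markers to 465 and 742. Hepatocyte markers summed to 19426 and 24972, although 8 of 10 were below 0, and Alb is listed at 0 in the library labelled WT. The part of these markers in the members' values was not tested.

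**Figure D3:**
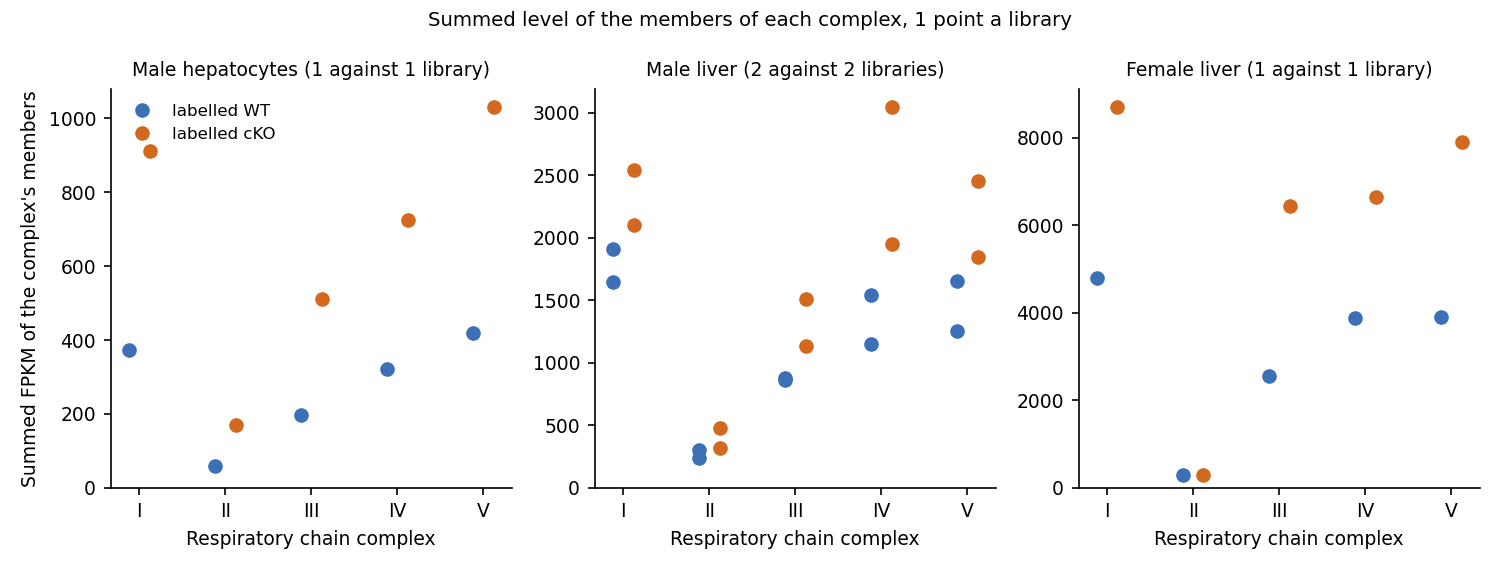
FPKM summed over the members of each complex (y axis, from 0) in each library, blue labelled WT and orange labelled cKO, with 1 point a library. The y axes differ because the tables were normalized separately. In hepatocytes and male liver all complexes were higher in the libraries labelled cKO, and in female liver complex II was at 290.05 and 294 FPKM.

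The summed FPKM of the members was 5170 and 6267 in the male livers labelled WT and 7506 and 9879 in those labelled cKO, a ratio of 1.52 between the means. By complex this ratio was 1.31 for I, 1.47 for II, 1.52 for III, 1.86 for IV and 1.48 for V. That of complex II rests largely on Sdhc in cKO replicate 2, at 310.2 of a summed 479 FPKM. In cKO replicate 3 Sdhc was at 66.4, below both livers labelled WT. In female liver the sum went from 15449 to 29990 (1.94), with 1.81, 1.01, 2.52, 1.71 and 2.02 for complexes I to V. In hepatocytes the ratio was 2.44, with 2.44, 2.86, 2.59, 2.24 and 2.46. The FPKM of all genes did not sum to the same total in each library. As a share of it, members made up 0.720% and 0.985% in hepatocytes and 2.79% and 4.09% in female liver (WT first). In male liver it was 1.35% and 1.52% under the WT label against 1.72% and 2.26% under the cKO label. The largest ratio was that of IV in male liver, III in female liver and II in hepatocytes.

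Base composition moved with the differences in female liver. Across 81 members the log2 fold change and the share of G and C in the transcript had a Spearman rho of 0.45, and across 10875 genes a rho of 0.43. The third of members with the lowest share had a median of 0.19, and the third with the highest 1.32. In male liver rho was 0.15 over the members and 0.17 over all genes, and in hepatocytes 0.03 and 0.00. These correlations are across genes of the same libraries, which are not independent replicates, and the part of base composition in the result was not tested.

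**Figure D4:**
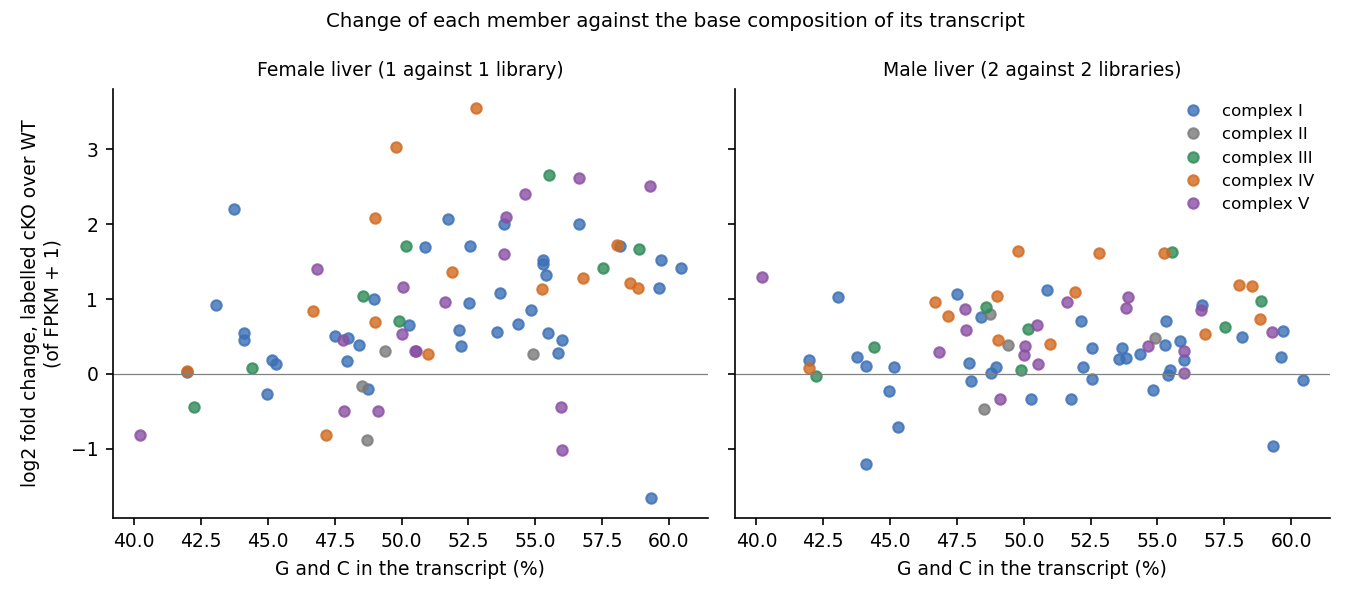
Log2 fold change of FPKM + 1 (y axis) against the share of G and C in the transcript (x axis, %) for each tested member in female and male liver, coloured by complex. In female liver the members rich in G and C lie higher (rho 0.45, n = 81), and in male liver the relation is weaker (rho 0.15).

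Between tables, 77 members were tested in all 3, and 58 of them were above 0 in each, against 33.5% of the 8808 genes tested in all 3. The median of all genes was itself above 0 in each table. Above that median in all 3 were 23 of the 77 members, and the share of all genes that were was not counted. At least 2-fold higher in all 3 were 5 members, Cox4i1, Cox7a2, Cox8a, Ndufa12 and Uqcr10, against 1.35% of these genes, and 0 were lower, against 0.0341%. Most of these are small nuclear-encoded subunits of complexes III and IV. In hepatocytes Cox4i1 was at 49.6 and 120.3 FPKM, Cox8a at 35.95 and 100.1 and Cox7a2 at 13.5 and 29.9, WT first. The members' log2 fold changes had a Pearson r of 0.46 and a Spearman rho of 0.41 between male and female liver (n = 81, against an r of 0.60 over 10009 genes), and an r of -0.23 and a rho of -0.13 between male liver and hepatocytes (n = 77, against an r of -0.41 over 9263 genes). Between female liver and hepatocytes the members' r was -0.04, against -0.32 over 8999 genes.

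Genes that work with the members were counted from lists. Of the 13 subunits encoded in mitochondrial DNA, 2 were called higher in male liver and 0 lower. They were mt-Nd1, a complex I subunit, at 7452 and 6819 FPKM against 20716 and 26051 (1.70 ± 0.30, limma adjusted p = 0.0319), and mt-Atp8, which was listed at practically 0 in both livers labelled WT. In the female libraries 10 and 7 of these genes were listed at 0 (WT first), and no fold is given for them. Of 22 electron carriers and partners, such as cytochrome c and the ADP/ATP carriers, 0 were called in male liver, with a median of 0.67 and 11 at an unadjusted p under 0.05, which 25.3% of all genes reached. Etfdh, which passes electrons from fatty acid oxidation to ubiquinone, was at 57.5 and 68.2 against 21.5 and 39.1 (-1.08 ± 0.40, limma adjusted p = 0.151).

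Assembly factors (38 tested) and regulators of mitochondrial biogenesis (15 tested) also had 0 calls in either direction in male liver, with medians of 0.32 and 0.33. At an unadjusted p under 0.05 there were 6 and 2, again to be read against 25.3% of all genes. In hepatocytes the medians of carriers, assembly factors and regulators were 0.72, 0.72 and 0.60, below the 1.27 of the members, and in female liver they were 1.02, 0.80 and 0.27. Atpif1, the inhibitor of ATP synthase, was at 76.9 and 857.5 FPKM in female liver and at 6.31 and 2.30 in hepatocytes, WT first.

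The m6A peaks of the members differed most between the hepatocyte lists. Among members at 1 FPKM or more in the matching input, 54 of 75 (72.0%) had a listed peak in the IP labelled WT, where 63.8% of all such genes had one. In the IP labelled cKO it was 26 of 77 (33.8%), where 64.6% of all such genes had one. In all, 71 peaks lay in members in the list labelled WT and 30 in that labelled cKO, and 21 members had peaks in both lists, 33 in the former alone and 5 in the latter alone. Peaks came from 1 IP a genotype, so that there is no replicate check. The peak caller's false discovery rates differ between the whole lists, since 16638 of 17175 peaks were at 5% or less in the list labelled WT and 4 of 17277, in 0 members, in that labelled cKO.

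All complexes had fewer members with a peak in the list labelled cKO. Complex III went from 7 to 1 of its 8 members, complex V from 12 to 4, complex I from 25 to 16, complex IV from 6 to 3 and complex II from 4 to 2. The median fold enrichment of the members' peaks was 23.1 in the list labelled WT and 6.42 in that labelled cKO, while over all peaks it was 28.5 and 14.9. Members were also higher in the input labelled cKO, and genes of that kind had fewer peaks in general. Of 1887 genes that are no members and were at least 2-fold higher, 83.2% had a peak in the list labelled WT and 57.9% in that labelled cKO, beside 72.9% and 32.2% of the 59 members at least 2-fold higher. Transcript length moved with it too. Of 154 genes at least 2-fold higher with a transcript of at most 1000 bases, 55.8% and 27.3% had a peak. This group includes the members of that kind, so it is not a separate comparison. The part of level and length in the result was not tested.

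**Figure D5:**
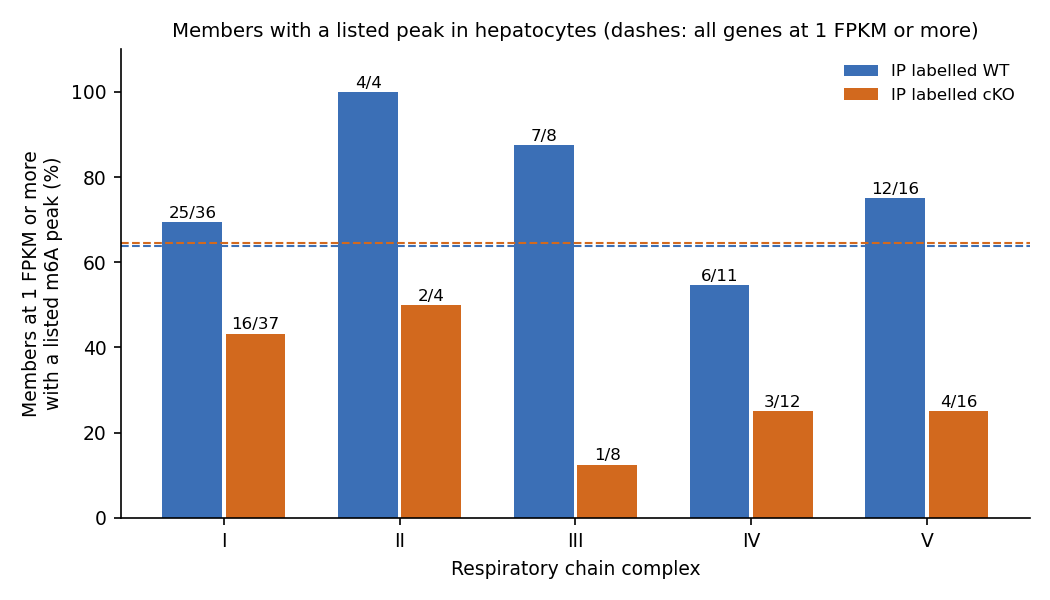
Share of the members at 1 FPKM or more with a listed m6A peak (y axis, %, from 0) by complex (x axis) in the hepatocyte IP labelled WT (blue) and cKO (orange), with the numbers above the bars. Dashed lines are all genes at 1 FPKM or more (63.8% and 64.6%), and the orange bars are lower than the blue ones in each complex.

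The peaks with the highest fold enrichment in the hepatocyte IP labelled WT lay in Atp5c1 (the gamma subunit, 202), Atp5sl (157), Atp5b (151), Ndufs1 (109) and Ndufa10 (91.8). In the IP labelled cKO they lay in Uqcrh (34.5), Ndufs4 (19.4), Ndufab1 (15.2), Ndufa8 (14.6) and Ndufa2 (13.2). The Uqcrh peak was listed at the same place in the IP labelled WT, with a fold enrichment of 14.2. Windows of at most 30 bases within such peaks (GRCm38, strand of the gene) are shown to tell which of them hold GGAC, a common form of the m6A consensus, in capitals. The region named is that of the peak's centre. The window of Uqcrh reaches into coding sequence, since its atg is the annotated start codon and its GGAC letters follow it.
Atp5sl (3' UTR, chr7:25625163-25625192, plus strand): tgctggcctacacGGACtagagaccagcag
Ndufa10 (coding exon, chr1:92463097-92463126, minus strand): tccaGGACatcgagaatgcgtacaagaaaa
Uqcrh (5' UTR exon, chr4:116074950-116074979, minus strand): ggctcccgacatgGGACtagaGGACgaacg
Ndufa8 (5' UTR exon, chr2:36049289-36049318, minus strand): ggccagccaaaggGGACttgaaggagacgg
Atp5b (coding exon, chr10:128084369-128084398, plus strand): caggggcaccaatcaaaattcctgttggtc
Ndufs1 (coding exon, chr1:63160933-63160962, minus strand): agcacaagaactggagaggtaatgaggatt

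The windows of Atp5b and Ndufs1 hold no GGAC, nor do their whole peaks. Of the 70 peaks within members' exons in the list labelled WT, 36 held GGAC. By the region of their centre, 42 of its 71 peaks lay in coding sequence, 23 in 3' UTRs and 3 in 5' UTRs. In the list labelled cKO it was 17, 7 and 5 of 30. Many peaks (30 of 71) spanned a whole exon, so that their edges follow the annotation.

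In male liver few members had a peak, and the lowest peak scores in these lists were 3.03 to 3.05, against 40.11 and 40.04 in the hepatocyte lists. Among members at 1 FPKM or more it was 9 of 79 and 4 of 78 in the IPs labelled WT (all genes 14.4% and 5.51%), and 4 of 79 and 3 of 81 in those labelled cKO (7.8% and 5.36%). Of 19 members with a peak in any liver, 16 had it in 1 liver only, and 0 had peaks in both livers of one genotype and in neither of the other. Cox6a2 was the only member listed in all 4 livers, with fold enrichments in its 3' exon of 20.6, 5.03 and 4.40 in WT replicate 2, cKO replicate 2 and cKO replicate 3, and of 4.77 in the exon before it in WT replicate 3. All 4 peaks are listed at a false discovery rate of 100%, and the gene had 0 fragments in the input of WT replicate 2. Its window in the peak of WT replicate 2 is shown, with GGAC in capitals, beside that of Cox7a2l in cKO replicate 3 (fold enrichment 65.1).
Cox6a2 (3' UTR, chr7:128205632-128205661, minus strand): ctgaggttccagtGGACagttccaagctca
Cox7a2l (3' UTR, chr17:83501938-83501967, minus strand): gttatgattgaccGGACtgcggaataaaca

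Cox7a2l also had a peak at this place in both hepatocyte lists, with a fold enrichment of 8.97 in that labelled WT and 10.99 in that labelled cKO. Uqcr10, Cox4i1 and Cox8a, which were at least 2-fold higher in all 3 expression tables, had no peak in any of the 6 lists, while Ndufa12 had 1 in each hepatocyte list, at different places, and Cox7a2 had 1 in the liver WT replicate 2.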

How the data were processed

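Expression in 8 libraries and m6A peaks in 6 IP libraries were taken from the deposited tables. Per the submitters' processing notes and methods, the authors removed adapters (cutadapt 1.9.3) and mapped reads with HISAT2 2.0.4 on mm10. The deposited FPKM values were estimated by the authors with Cufflinks and Cuffdiff, whose versions, like that of MACS, are not stated. The deposited count columns hold estimated signal scaled by the authors with a factor for each library, and served only to estimate depth, since between 92.4% and 96.4% of low values were whole multiples of a step within 0.02. The authors called peaks with MACS in each IP library. The deposited fold enrichment is the ratio of IP over input, the deposited score is -10 log10 of the p-value, and the deposited false discovery rate is in percent. A further 6 value columns, identical to those scores, were not used. The labels and the paper name different kits for the IP and the libraries. How deeply the IP libraries were sequenced is unknown here.

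The male livers were tested with limma 3.58.1 (R 4.3.3, variance trend) on log2(FPKM + 1) for 10937 genes whose mean reached 1 FPKM, with Benjamini-Hochberg adjustment over all of them and a threshold of 0.05. This scale understates changes of low genes. On simulated data of the same 10937 genes, 99 of 100 genes changed 4-fold and 100 of 100 changed 16-fold were called. The simulated noise had the same size for every gene and was set below the spread between the 2 livers labelled WT. Only well-expressed genes were changed. This recovery checks that the fit runs correctly and does not give its power for the members, whose standard errors reached 0.92. Hepatocytes and female liver, with 1 library a genotype, were compared by the fold of FPKM + 1 and called at 2-fold. Tables were normalized separately and compared only within themselves. Transcript features came from GENCODE M21, and promoters from RefSeq. The members and lists were chosen with earlier results of these data known. Members were named if called in male liver, if among the 2 of a complex with the largest change there, if the most abundant of a complex, if tissue isoforms or core subunits, if changed 2-fold the same way in all 3 tables, or if their peaks ranked highest. Others named for a range or contrast were chosen after their values were seen. The values of a member that the rule takes are not reported here. FPKM of a member may hold or lack reads of near-identical processed copies. Alternatives covered the pseudocount, the filter on low values, scaling, the variance trend, a replicate block, each library left out, and peak thresholds. Scaling without the mitochondrial genes made the summed FPKM of all other genes equal across the libraries compared.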

Additional observations from a re-analysis of the deposited data

Results flagged for a closer look

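Atp5s, named like a subunit of ATP synthase, differed in direction between tables, with a log2 fold change of 1.29 in male liver, where both libraries labelled cKO were above both labelled WT, and of -0.818 in female liver. Ndufb3, an accessory subunit of complex I, had a log2 fold change of 1.4 in hepatocytes and of -0.231 in male liver, where both libraries labelled cKO were below both labelled WT. Neither difference was tested, since 1 of the tables in each case has 1 library a genotype.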

How the results depend on the processing

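The count of members called higher in male liver, 1, became 0 without a filter, with median-ratio scaling and with no variance trend, and 2 with a mean of at least 5 FPKM or without the mitochondrial genes in the scaling (Cox7a2l and Uqcr10). It was 11 with male and female liver in the same fit and 0 without any single library, and the count among named members was equal to these except for 10 with both sexes. With the replicate number as a block it was 3 (Cox4i1, Cox7a2l and Uqcr10). Same-numbered libraries deviated together with r = 0.13 over all genes and -0.10 over the members, and with 2 pairs and no label that ties them the numbers were not taken as pairing the libraries. The cause of these changes was not tested. Over all genes, calls were 403 higher and 164 lower as reported, 2 and 9 without a filter, 167 and 292 with median-ratio scaling, 788 and 286 with the block, 1475 and 386 with both sexes, and 0 without any single library.

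Median-ratio scaling moved the median of all genes in male liver from 0.42 to -0.01 and that of the members to -0.13. Those of complexes I to V moved to -0.33, -0.083, 0.10, 0.48 and 0.035. Changes are therefore best read against the median of all genes. The gap between complexes IV and I was 0.81 with either scaling. Since 1 factor a library shifts both complexes about alike, this gap is no check on scaling. With both sexes the median of complex III was 0.92. Leaving out each library gave medians of 0.15 to 0.77 for the members, -0.02 to 0.54 for complex I, 0.14 to 0.58 for complex II, 0.33 to 0.74 for complex III, 0.54 to 1.29 for complex IV and 0.31 to 0.77 for complex V. Sdhb reversed to -0.038 with median-ratio scaling, and without a library Ndufc1 ranged from -2.61 to 0.22 and Sdhc from -0.30 to 1.91.

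In hepatocytes 29 of 77 members were at least 2-fold higher with median-ratio scaling, against 14.0% of all genes. Without the mitochondrial genes it was 7 of 77, against 6.72%. In female liver 14 were higher and 9 lower with median-ratio scaling, 21 and 5 without the mitochondrial genes, 1 was lower at a mean of at least 5 FPKM and 5 at 1.5-fold. Without the mitochondrial genes the ratios of summed FPKM for complexes I to V and all members were 1.30, 0.729 (reversed), 1.81, 1.23, 1.45 and 1.39 in female liver, and 1.36, 1.59, 1.44, 1.25, 1.37 and 1.36 in hepatocytes. With Ndufa4 counted in complex IV and Atp5s, Atp5sl and Cox7a2l left out, the female ratios were 1.84 for complex I, 1.61 for IV and 1.93 for all.

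At a false discovery rate of at most 5%, 0 members had a peak in the hepatocyte list labelled cKO, where 4 of 17277 peaks of any gene were left, and in the 4 liver lists, where 0 were left. At a score of at least 40, 2, 3 and 2 members had one in the livers WT replicate 2, WT replicate 3 and cKO replicate 2, and at a fold enrichment of at least 5 it was 2, 3 and 3. A count test on recovered reads was not run, since too few values were whole multiples of a step. Depth limits the hepatocyte pair most, where the median member rested on 45 fragments in the library labelled WT.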
